A study of Mus musculus with 12 samples.

Results

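Long gene bodies were examined for 5-hydroxymethylcytosine (5hmC) in mouse embryonic stem cells (ESC), heart and liver. The members are the gene bodies whose deposited length is 200000 bp or more, whatever their 5hmC. They number 810 of the 13581 genes in the tables (5.98% of the 13549 bodies with a positive length) and cover 338 Mb, which is 41.3% of all body sequence. Their median length was 319 kb, with 168 of 500 kb or more and 45 of 1 Mb or more. They are set beside the 3771 bodies of 20000 to 50000 bp.

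The series holds 12 libraries in 7 groups. ESC are the EB5 line of the 129/Ola strain, kept with LIF, a cytokine that holds them undifferentiated (2 libraries). Whole heart and whole liver came from C57BL6/j mice at embryonic day 14 (E14, 1 library of each), at neonatal day 1 to 2 (P1, 2 of each) and at 8 weeks (W8, 2 of each). The labels name no transgene or treatment. Whether replicates stem from different animals or cultures is left unsaid, so a p-value here measures only how far these libraries scatter, and that scatter may be technical. Sequencing was paired (75 bp) for ESC and newborn tissues and single-ended (50 bp) for the embryonic and adult ones. Age and read format therefore cannot be told apart between P1 and the other ages, nor strain and cell state between ESC and tissue.

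5hmC is made from 5-methylcytosine by the Tet dioxygenases. In differentiated tissues it is known to gather in the bodies of transcribed genes, and to be lower over silent ones. Here it was captured by adding an azide-bearing glucose to each 5hmC, coupling biotin to it and pulling the fragments down on streptavidin. Very long genes are rich in giant muscle proteins, ion channels, cell adhesion molecules of neurons, developmental regulators and the genes at common fragile sites, which are chromosome regions prone to breakage when replication is slowed. Most of such a body is intron. Values are FPKM, read counts scaled by body length and library size, so bodies of any length share a scale. A level is relative to the rest of its library and is not a share of cytosines.

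The 5′ ends of 6 members are shown because the results below turn on these genes and because promoter CpG content was one feature the length rule did not use. Named members with several RefSeq starts were not eligible to be shown. Each run is the sense strand from 250 bases before to 50 bases after the RefSeq start (GRCm38.p6), in lower case with every CpG in capitals. Ttn encodes the sarcomere spring titin, Ryr2 the calcium release channel of heart muscle, Slc8a1 the sodium-calcium exchanger, Dpyd the enzyme that starts pyrimidine breakdown, Grik3 a kainate-type glutamate receptor subunit and Chl1 a neural adhesion molecule.
Ttn: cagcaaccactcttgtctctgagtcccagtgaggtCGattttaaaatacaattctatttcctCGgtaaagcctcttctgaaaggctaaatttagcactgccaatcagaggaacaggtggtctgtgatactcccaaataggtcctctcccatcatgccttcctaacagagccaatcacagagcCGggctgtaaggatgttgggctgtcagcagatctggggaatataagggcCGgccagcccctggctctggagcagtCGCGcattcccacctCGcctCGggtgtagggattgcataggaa
Ryr2: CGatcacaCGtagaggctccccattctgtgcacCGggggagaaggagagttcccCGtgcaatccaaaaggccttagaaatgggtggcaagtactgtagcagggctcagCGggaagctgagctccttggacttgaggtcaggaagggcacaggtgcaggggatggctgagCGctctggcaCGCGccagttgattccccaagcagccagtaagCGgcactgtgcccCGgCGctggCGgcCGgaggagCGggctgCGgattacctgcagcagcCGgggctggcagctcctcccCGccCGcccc
Slc8a1: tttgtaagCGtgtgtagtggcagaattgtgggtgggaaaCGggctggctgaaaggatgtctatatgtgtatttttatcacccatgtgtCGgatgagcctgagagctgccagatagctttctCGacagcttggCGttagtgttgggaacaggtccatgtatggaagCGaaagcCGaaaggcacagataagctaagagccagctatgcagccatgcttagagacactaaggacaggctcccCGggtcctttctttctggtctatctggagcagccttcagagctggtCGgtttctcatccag
Dpyd: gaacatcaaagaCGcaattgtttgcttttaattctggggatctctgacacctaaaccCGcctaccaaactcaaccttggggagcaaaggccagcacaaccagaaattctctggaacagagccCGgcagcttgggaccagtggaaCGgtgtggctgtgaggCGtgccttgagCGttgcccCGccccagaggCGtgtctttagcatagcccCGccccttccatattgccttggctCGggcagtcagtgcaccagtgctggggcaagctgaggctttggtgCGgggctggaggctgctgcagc
Grik3: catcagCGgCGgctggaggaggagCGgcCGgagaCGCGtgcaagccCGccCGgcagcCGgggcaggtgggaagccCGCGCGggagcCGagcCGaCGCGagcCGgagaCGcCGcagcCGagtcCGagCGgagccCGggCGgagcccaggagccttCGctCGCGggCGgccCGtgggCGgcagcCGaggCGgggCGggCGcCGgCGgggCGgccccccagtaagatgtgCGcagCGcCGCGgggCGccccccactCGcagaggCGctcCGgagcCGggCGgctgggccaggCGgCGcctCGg
Chl1: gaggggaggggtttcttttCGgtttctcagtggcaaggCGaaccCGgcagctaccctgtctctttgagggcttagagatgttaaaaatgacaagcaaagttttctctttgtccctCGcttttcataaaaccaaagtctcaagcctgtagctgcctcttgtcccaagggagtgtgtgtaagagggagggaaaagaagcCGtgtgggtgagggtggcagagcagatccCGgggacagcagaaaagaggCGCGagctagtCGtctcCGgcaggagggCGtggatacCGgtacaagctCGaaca
They lie at chr2:76982498-76982797 (Ttn, minus strand), chr13:12106896-12107195 (Ryr2, minus), chr17:81738338-81738637 (Slc8a1, minus), chr3:118561930-118562229 (Dpyd, plus), chr4:125490446-125490745 (Grik3, plus) and chr6:103510626-103510925 (Chl1, plus). Their CpG counts were 8, 18, 9, 11, 50 and 13. The motif searched was CG, which is the same on both strands, and 94.6% of all 32851 RefSeq promoters of this length hold at least 1. A gene with several RefSeq starts was given the highest count among them, and whether the number of starts differs with length was not tested. Among members 599 matched a RefSeq promoter, with a median of 21 CpG and 68.4% holding 15 or more. The 2985 matched bodies of 20 to 50 kb also had a median of 21 (69.6% with 15 or more, against 66.7% of all 10644 matched genes).

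Depth was recovered from the steps between low FPKM values, which were whole reads to within 0.01 reads. A typical (median) member was covered by 151 to 1915 reads, or by 40.4 in the second W8 heart library, and a body of 20 to 50 kb by 24 to 250.2, or by 6.03 there. That is a counting error of 2.29% to 8.14% of the value for a member (15.7% in W8 heart replicate 2), and of 6.32% to 20.4% (40.7%) for the shorter class. Such errors cover counting only, since the reads carry no molecular identifiers. In all, 604012 to 5761636 reads lay over gene bodies, and 142778 in W8 heart replicate 2. No member was listed at 0 in any library, and 804 of the 810 passed the filter for testing, a mean of at least 0.0746 FPKM.

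Of the libraries, W8 heart replicate 2 and E14 liver stood apart. In W8 heart replicate 2, the shallowest, the bodies of 5 measured liver markers summed to 6.92 FPKM, against 2.49 in replicate 1 and 8.24 and 8.11 in W8 liver. Alb (1.57) and Ttr (3.44) made most of this, above W8 liver (Alb 0.279 and 0.324, Ttr 0.781 and 0.784). Cps1, Hnf4a and Ass1 were at 0.290 to 0.822, below the 1.58 to 3.48 of W8 liver, so the similar sums hide unlike genes. Nkx2-5 and Klf1 were at 0. The 6 heart markers of W8 heart replicate 2 summed to 16.1 against 9.34 in replicate 1. Their part in the W8 heart results was not tested, and counts are also given without this library. In E14 liver the members' levels were compressed: the 95th percentile was 3.82 times the 5th, against 9.90 to 22.7 times in the other 11 libraries. Bodies of 20 to 50 kb were compressed there too, at 4.03 times against 7.46 to 16.4 times. In both P1 hearts 6 of 6 heart markers were above both P1 livers, and 5 of 5 measured liver markers were the other way round. At W8 these counts were 5 and 3. Of 5 measured ESC markers only Esrrb and Dppa4 were above every tissue library in both ESC libraries, and Pou5f1 was at 0 and 0.0921, so body 5hmC did not mark ESC by these genes. At W8 the bodies of 3 endothelial markers summed to 2.86 and 2.31 FPKM in heart and 1.68 and 1.67 in liver, and 3 fibroblast markers to 2.22 and 2.16 against 0.730 and 0.782. At P1 the endothelial sums were 3.91 and 3.23 in heart and 3.37 and 3.00 in liver, the fibroblast sums 2.48 and 2.29 against 2.22 and 1.78. The erythroid marker Klf1 was at 2.30 and 2.46 FPKM in P1 liver and at 1.83 in E14 liver, beside 2.30 and 2.02 in P1 heart. The fibroblast sums were higher in heart at both ages and the endothelial sums at W8, so both move with the heart-high calls below. At P1, however, 1 of the 3 fibroblast markers (Pdgfra) was above both liver libraries in both heart libraries, against 3 at W8. Of the 3 endothelial markers 1 was so at P1 and 2 at W8. The opposite order held for 0 of these markers at either age. The leukocyte markers Ptprc and Ikzf1 summed to 0.530 and 0.553 FPKM in P1 heart, below the 1.62 and 1.28 of P1 liver, and to 0.563 and 1.03 in W8 heart, above the 0.313 and 0.332 of W8 liver. They move at W8 with the heart-high calls of Runx1, Vav3 and Tiam1. The part of these cell types in the calls was not tested. In whole tissue, the share of a cell type and the 5hmC per cell cannot be told apart.

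Members had a lower median level than bodies of 20 to 50 kb in every library. In ESC the median member was at 0.372 and 0.369 FPKM, against 0.874 and 0.839 for bodies of 20 to 50 kb, which is 43.3% ± 0.948 (SD, n = 2). Newborn heart was at 68.1% ± 1.58 and newborn liver at 47.9% ± 0.493, and adult liver was at 38.2% ± 0.327. W8 heart gave 80.2% and 55.7% in its replicates, and the single libraries of E14 heart and E14 liver gave 62.4% and 66.0%. Long bodies thus stood lowest against shorter ones in W8 liver, and both P1 heart libraries lay above both P1 liver libraries.

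Within the long class the median fell at each of the steps at 300 kb, 500 kb and 1 Mb in all 12 libraries. Below 200 kb it did not fall at every step, and in W8 heart replicate 1 it was 0.578 FPKM at 20 to 50 kb and 0.603 at 100 to 200 kb. Bodies of 1 Mb or more were at 15.9% to 36.4% of the 20 to 50 kb median in 11 libraries and at 43.7% in E14 liver. Across the 810 members, length and level had a Spearman rho of -0.30 to -0.35 in the 12 libraries. Across the 3771 shorter bodies rho was -0.01 to -0.08. These describe genes of one library, which share its depth and are not independent replicates.

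**Figure D1:**
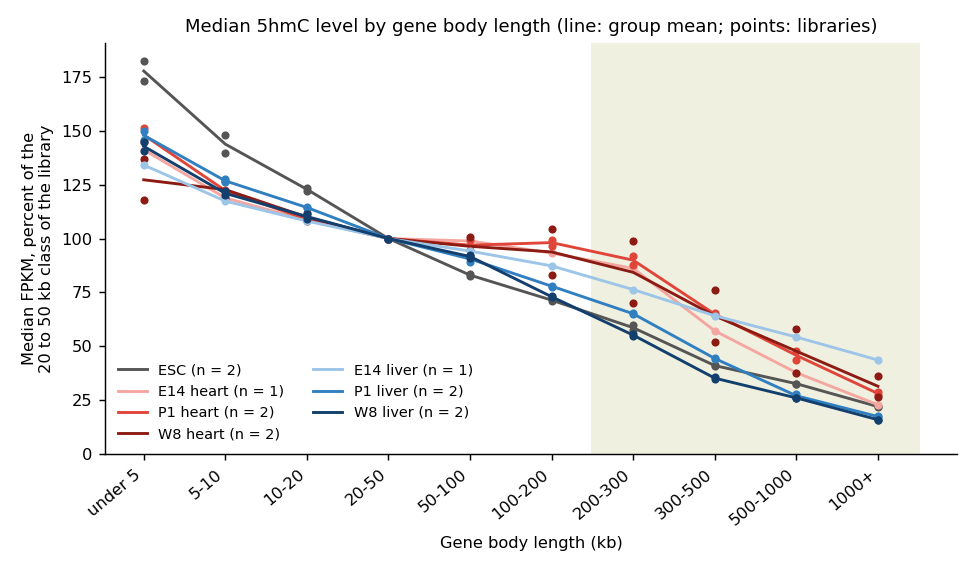
Median gene body level by length class (kb), as a percent of the 20 to 50 kb class of the same library; points are libraries, lines group means, and the shaded part holds bodies of 200 kb or more. Over all long bodies P1 heart is at 68.1% and P1 liver at 47.9%, and E14 liver is the highest at 1 Mb or more (43.7%).

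In promoter windows of 4000 bp the members' mean level in ESC was at 97.7% and 96.3% of that of the shorter class. In the tissue libraries this share was 56.3% to 79.8%. At 1 Mb or more the mean window was at 0.669 and 0.639 FPKM in ESC, against 0.777 and 0.734 for bodies of 20 to 50 kb. Window and body levels of the members correlated across genes at a rho of 0.36 to 0.68 in 9 libraries, highest in W8 liver. The exceptions were ESC (0.21 and 0.23) and the second W8 heart library (0.23). In all 12 libraries, members with 15 or more promoter CpG (410) had a higher median body level than those with fewer (189), for example 0.348 against 0.205 FPKM in W8 liver replicate 1. The shorter class showed the same order in all 12, so it was not found in long bodies alone. When the 4000 bp windows were tested in place of bodies, no member passed in any comparison.

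Replicates lay closer together over long bodies, which also collect more reads; the part of read number in this was not tested. The SD over members of the difference between replicates was 0.10 log2 units for ESC and 0.07 for W8 liver, against 0.27 and 0.17 in bodies of 20 to 50 kb. For the newborn tissues it was 0.13 (heart) and 0.12 (liver), against 0.41 and 0.33. W8 heart had 0.37 against 0.77. The SD of the heart minus liver difference was 0.42 at P1 and 0.61 at W8 for members, and 0.51 and 0.76 for the shorter class. At these 2 ages the tissue spread of members was smaller than that of shorter bodies. Such a spread includes the scatter between replicates, which was larger in the shorter class, and the part of that scatter was not tested. At E14, with 1 library of each tissue, it was larger (0.58 against 0.52). The median range over the 7 groups was 1.04 log2 units for a member and 1.23 for a shorter body. With each group centred on the median of its length class, the ranges were 0.997 and 1.05.

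**Figure D2:**
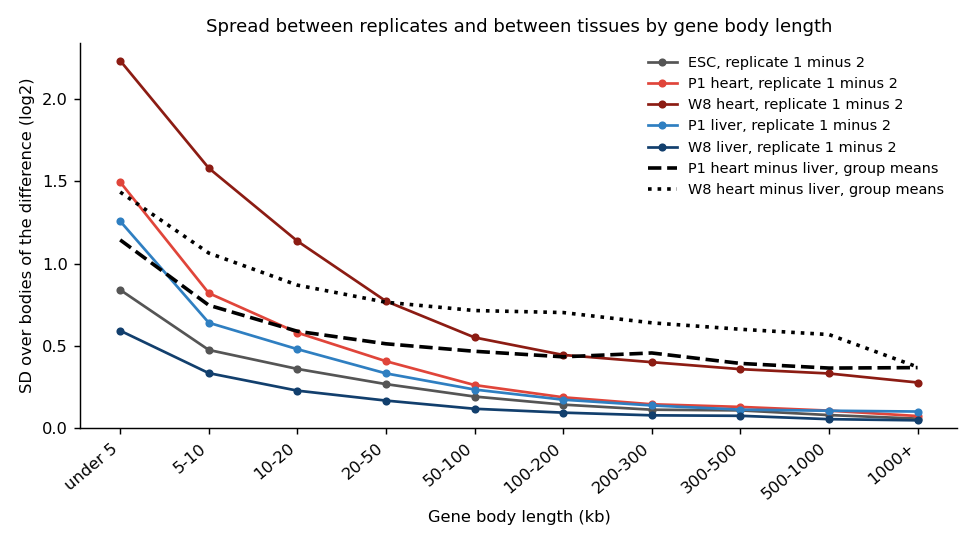
SD over gene bodies of the log2 difference between replicates (coloured lines) and between heart and liver group means (black), by length class (kb). At 200 kb or more the replicate lines of 4 groups lie at 0.15 or lower and the tissue lines between 0.37 and 0.64, while W8 heart replicates still differ by 0.28 to 0.40.

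The heart minus liver difference of long bodies differed in median from that of shorter ones, at P1 and W8 as part of a gradient in length. At 100 to 200 kb the log2 median was -0.04 at P1 and -0.11 at W8, and at 200 to 300 kb 0.09 and 0.11. At P1 46.2% and 59.7% of these classes were higher in heart. At P1 the median heart minus liver difference, on the log2(FPKM + 0.0746) scale, was 0.15 over members, -0.29 over bodies of 20 to 50 kb and -0.23 over all 13498 tested. At W8 it was 0.25, -0.36 and -0.32, and 0.37, -0.42 and -0.34 without W8 heart replicate 2. At E14 the members lay lower than the rest, at 0.09 against 0.24 and 0.25. Of members, 65.3% were higher in heart at P1, 63.6% at W8 and 55.8% at E14, against 26.3%, 31.9% and 66.8% of the shorter class. Centring each library on its median moves the median of all bodies from -0.23 to 0.02 at P1 and from -0.32 to -0.01 at W8, and the members' median to 0.40 and 0.57.

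At 1 Mb or more (43 tested) the P1 and W8 medians reached 0.26 and 0.38, and 81.4% and 90.7% of bodies were higher in heart. At E14 the same bodies had a median of -0.45 and 27.9% were higher in heart. The compressed E14 liver library moves with this reversal: the 5th percentile over bodies of 1 Mb or more was 0.183 FPKM there and 0.0484 to 0.0973 in the other libraries. Its part in the reversal was not tested.

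**Figure D3:**
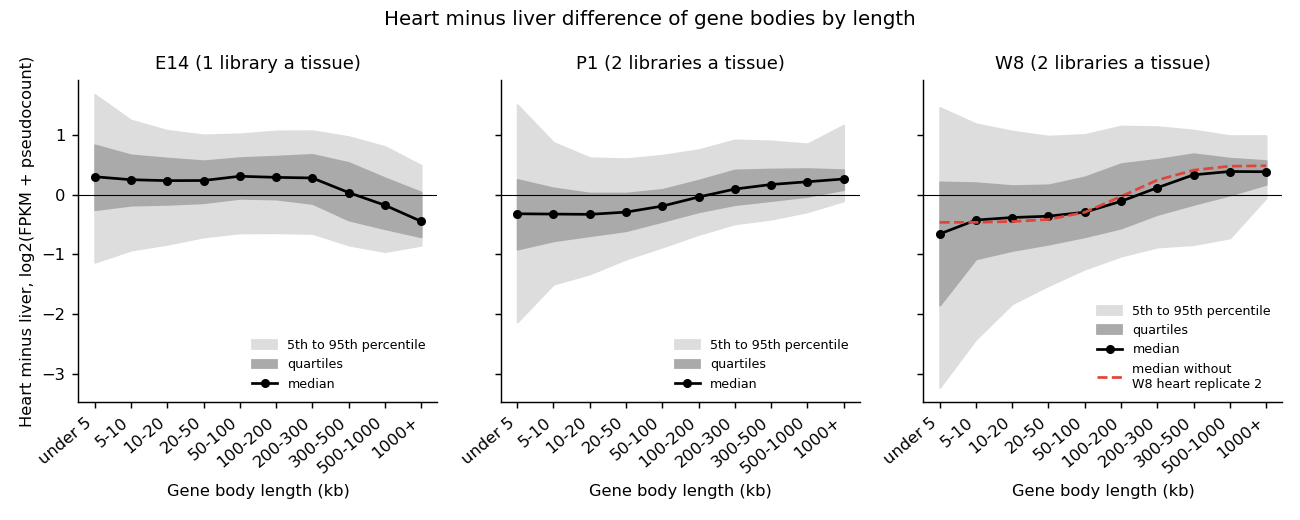
Heart minus liver difference of gene bodies (log2) by length class (kb) at E14, P1 and W8; bands hold the quartiles and the 5th to 95th percentiles, and the dashed line leaves out W8 heart replicate 2. The medians rise from below 0 in the short classes to 0.26 (P1) and 0.38 (W8) at 1 Mb or more, and fall at E14 from 0.28 at 200 to 300 kb to -0.45.

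The newborn comparison asked which long bodies differed between heart and liver libraries read in the same format. By limma with Benjamini-Hochberg adjustment over all tested bodies, 8 of 804 members were higher in heart, where 0.348% of all bodies were called higher, and 4 were lower, where 1.93% were. Of the 8, Ttn, Ryr2 and Fhod3 are on the cardiac list described below, and of the 4, Thrb is on the liver list. Fitting the 2 newborn groups alone ended every call (0 members, 0.00% of all bodies, limma), with 198 members at an unadjusted p under 0.05. Ttn stood at 1.78 and 1.80 FPKM in P1 heart and 0.307 and 0.286 in P1 liver (log2 difference 2.33 ± 0.38, SE, adjusted p = 0.0452). Like most genes named below, it was chosen among calls whose groups do not overlap, so a gap between its groups is part of the choice and supports nothing.

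Ryr2 was at 1.01 and 1.12 FPKM in P1 heart against 0.287 and 0.261 in P1 liver (1.71 ± 0.27). Tnni3k, a kinase that binds cardiac troponin I, was at 0.603 and 0.649 against 0.110 and 0.154 (1.77 ± 0.20). Fhod3, a formin that assembles sarcomeric actin, was at 1.19 and 1.08 against 0.311 and 0.302 (1.67 ± 0.25). In each the lower heart library was at least 3 times the higher liver library. Also higher were Gm12824 (1.68 ± 0.20), the T-cadherin gene Cdh13 (1.50 ± 0.28), the metalloprotease Adamts19 (1.17 ± 0.16) and Mgmt (0.72 ± 0.13), which repairs alkylated guanine.

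On the liver side Pid1, an adaptor that binds lipoprotein receptor-related protein, was at 0.843 and 0.700 FPKM in P1 liver and 0.287 and 0.236 in P1 heart (-1.33 ± 0.17). Thrb, the thyroid hormone receptor beta that prevails in liver, was at 0.528 and 0.518 against 0.193 and 0.157 (-1.26 ± 0.18). The adhesion molecule Alcam (-0.97 ± 0.15) and the scaffold Iqgap2 (-0.82 ± 0.15) were the other 2.

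The adjusted p-values of these 12 calls lay between 0.0310 (Tnni3k) and just under the threshold of 0.05 (Cdh13). In fits that left out any 1 of the ESC, P1 or W8 liver libraries, no member passed. Without W8 heart replicate 1 there were 219 calls, and without replicate 2 there were 222 (184 higher and 38 lower, beside 5.90% and 16.5% of all bodies). Median centring gave 21 higher and 1 lower (0.704% and 0.385%).

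The adult comparison asked the same of W8 tissues. Of 804 members 218 were higher in heart, where 9.48% of all bodies were called higher, and 93 were lower, where 21.3% were. In a fit of the 2 adult groups alone, however, no member passed (0.00% of all bodies, limma), and 207 had an unadjusted p under 0.05. Without W8 heart replicate 2 the higher and lower calls were 340 and 89 (12.9% and 26.9% of all bodies), and after median centring 395 and 34 (16.4% and 10%). No member passed in fits without W8 liver replicate 1 or without W8 liver replicate 2, and 189 and 190 did without ESC replicate 1 and 2. Of the 12 members called at P1, 11 were called in the same direction at W8 (91.7% of the P1 calls, 3.54% of the W8 calls); Mgmt was not.

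Heart-high members again opened with Ttn, at 1.41 and 0.510 FPKM in W8 heart against 0.173 and 0.157 in W8 liver (1.96 ± 0.38, adjusted p = 0.0128). Ryr2 was at 0.694 and 0.355 against 0.104 and 0.104 (1.68 ± 0.27). Replicate 2 was the lower heart library for both, yet still above W8 liver. Chst11, which sulfates chondroitin chains, was at 1.56 and 1.49 against 0.398 and 0.382 (1.78 ± 0.14, adjusted p = 0.00350). Its replicates were close, but a gap between its groups is part of how it was chosen. Gm12824, the zinc finger genes Zfp536 and Zfp521, the lipid kinase Pip5k1b and the kinesin Kif6 followed, at 1.46 to 1.63.

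Liver-high members were led by Dpyd, at 0.760 and 0.848 FPKM in W8 liver and 0.158 and 0.134 in W8 heart (-1.99 ± 0.17, adjusted p = 0.00350). Pid1 was at 1.16 and 1.19 in W8 liver against 0.247 and 0.286 (-1.87 ± 0.17). Ghr, the growth hormone receptor, was at 1.20 and 1.32 against 0.491 and 0.372 (-1.41 ± 0.17). At P1 Dpyd had differed by -0.39 ± 0.17 (adjusted p = 0.204) and the Ghr libraries of heart (0.709 and 0.651) and liver (0.700 and 0.663) overlapped (adjusted p = 0.991).

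The others were Prr16 (-1.59 ± 0.19), Thrb (-1.53 ± 0.18), the estrogen receptor Esr1 (-1.37 ± 0.19), the GDNF co-receptor Gfra1 (-1.35 ± 0.15) and Gbe1, the glycogen branching enzyme (-1.34 ± 0.20). Whether the tissue difference itself changed from P1 to W8 was tested as an interaction. By limma 0 of 804 members passed, where 0.00741% of all bodies were called in each direction; 166 members had an unadjusted p under 0.05. The count did not hold in the fit without W8 heart replicate 1, where W8 heart rests on replicate 2 alone, the shallowest library. In the main limma fit the smallest adjusted p was 0.0894, shared by 5 members: Tiam1 (1.50 ± 0.20), Dpyd (-1.60 ± 0.24), St6galnac3 (1.26 ± 0.20), Dock2 (1.44 ± 0.23) and Runx1 (1.45 ± 0.24). The sialyltransferase gene St6galnac3 was singled out after its value was seen.

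**Figure D4:**
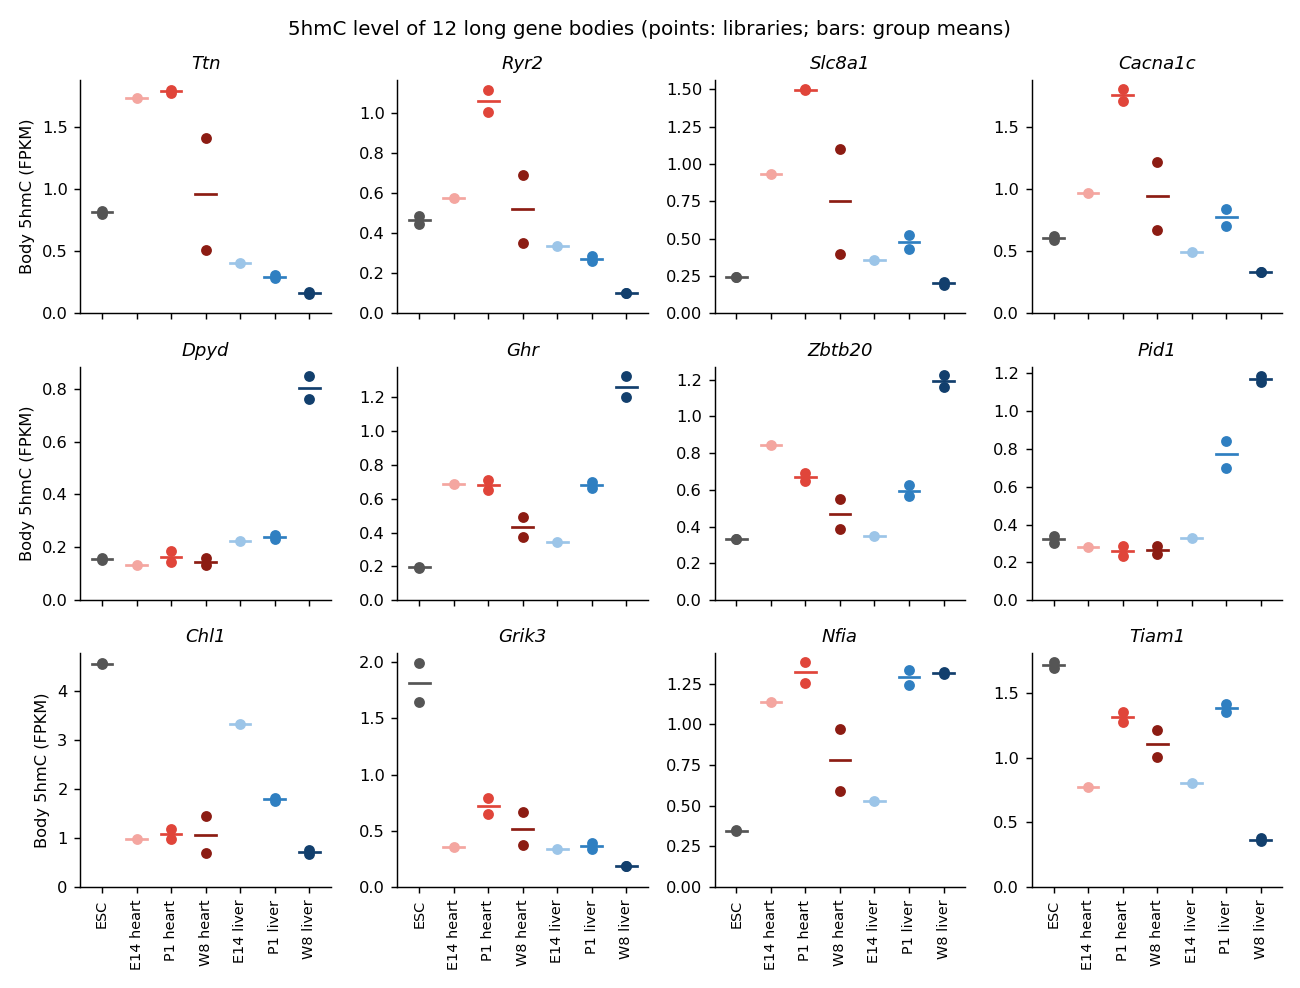
Body 5hmC level (FPKM) of 12 members in each library (points) with group means (bars). Ttn, Ryr2, Slc8a1 and Cacna1c are highest in heart, Dpyd, Ghr, Zbtb20 and Pid1 in W8 liver (Dpyd 0.760 and 0.848 there), Chl1 and Grik3 in ESC, and Tiam1 is lowest in W8 liver.

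The cardiac list, 30 genes of muscle structure and excitation of which 24 were members, held 3 calls at P1 and 11 at W8, each higher in heart. Over all bodies 0.348% were called higher at P1 and 9.48% at W8, and over tested members 0.995% and 27.1%. At P1 3 of 24 rose (Ttn, Ryr2 and Fhod3) and none fell, with a median of 0.79 beside 0.15 over all tested members. At W8 11 rose and none fell (median 0.67 beside 0.25). All 24 had a positive difference at P1 and 21 at W8. Leaving out W8 heart replicate 2 made the count 19 of 24 at each age, and after median centring 5 and 18. The list was compiled with earlier results of these data known, so its direction is not independent evidence.

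Among excitation genes, Slc8a1 was at 1.10 and 0.398 FPKM in W8 heart against 0.192 and 0.211 in W8 liver (1.43 ± 0.38, adjusted p = 0.0314). The calcium channel subunits Cacna1c (1.28 ± 0.26), Cacna2d1 (0.99 ± 0.25) and Cacnb2 (0.88 ± 0.25) and the potassium channel Kcnd2 (0.87 ± 0.20) also passed. Structural genes that passed were Ctnna3, an alpha-catenin of heart junctions (0.99 ± 0.24), and Dtna (0.89 ± 0.26) and Sgcd (0.84 ± 0.16) of the dystrophin complex. In all of them the lower W8 heart library lay above both W8 liver libraries.

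Dystrophin itself, Dmd, was not among them. Its body of 2255 kb (80196242 to 82451480 in mm9) was at 0.124 and 0.125 FPKM in P1 heart and 0.0842 and 0.0828 in P1 liver (0.33 ± 0.13, adjusted p = 0.185). At W8 Dmd was at 0.0970 and 0.10 in heart and 0.0738 and 0.0764 in liver (0.21 ± 0.13, adjusted p = 0.253). The heart libraries lay above the liver libraries at both ages without passing the test.

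Of the liver list (hormone receptors and metabolism, 14 of 30 genes being members), 1 fell at P1, Thrb, and 8 at W8, with medians of -0.11 and -0.71. Over all bodies 1.93% were called lower at P1 and 21.3% at W8, and over tested members 0.498% and 11.6%. Leaving out that library gave 1 higher and 3 lower at P1 and 2 higher and 7 lower at W8. After median centring the P1 median was 0.14 with no call, and the W8 calls were 2 higher and 7 lower. Besides Dpyd, Ghr, Thrb and Esr1 the adult calls were Zbtb20, a repressor of fetal liver genes (-1.24 ± 0.18), the carbohydrate kinase Fggy (-0.93 ± 0.17), the mineralocorticoid receptor Nr3c2 (-0.83 ± 0.15) and the orphan receptor Rora (-0.58 ± 0.17). Zbtb20 was at 1.16 and 1.23 FPKM in W8 liver and 0.548 and 0.386 in W8 heart. At E14 it was higher in heart, 0.845 against 0.348, in 1 library each.

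Neuronal genes made up the largest lists. Beside their counts, 9.48% of all bodies were called higher and 21.3% lower at W8, and 27.1% and 11.6% of tested members. The higher count of the receptor list, given below, was not far above that share of members. After median centring the members' shares were 49.1% and 4.23%. Of 41 tested genes of synaptic adhesion and axon guidance none passed at P1 (median 0.32), and 18 were higher in heart and none lower at W8 (0.49). Without W8 heart replicate 2 the counts were 12 higher and 1 lower at P1 and 29 and none at W8, and centring gave 34 at W8. Of 40 receptor and channel genes none passed at P1 (0.22) and 13 were higher and 1 lower at W8 (0.39). Without that library they had 10 higher and 1 lower, and 19 and 1, and with centring 23 higher at W8. These lists held some of the lowest levels: the median synaptic member was at 0.0927 and 0.101 FPKM in W8 liver, below its 0.158 and 0.221 in W8 heart.

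Dscaml1, an adhesion molecule of the synapse, was at 0.536 and 0.447 FPKM in W8 heart against 0.157 and 0.165 in W8 liver (1.26 ± 0.18). The guidance ligand Slit2 (1.18 ± 0.18) and the teneurin Odz4 (1.06 ± 0.17) followed. Among receptors and channels the largest were the channel-interacting protein Kcnip1 (1.01 ± 0.20), the potassium channel Kcnma1 (0.94 ± 0.24) and Unc13c (0.90 ± 0.19), which primes synaptic vesicles, and the 1 lower was the potassium channel Kcnt2 (-0.67 ± 0.17). At E14 these lists lay the other way, with 3 of 42 synaptic genes and 2 of 40 receptor genes higher in heart (medians -0.50 and -0.52). This moves with the compressed E14 liver library, whose part was not tested. There the list medians of 0.237 and 0.233 FPKM lie between the members' 5th percentile of 0.189 and lower quartile of 0.257. The 5th percentile was 0.0585 to 0.113 in the other 11 libraries. The other 5 lists had E14 medians of -0.16 to 0.69. E14 liver was the highest of the 7 groups for 23 of 42 synaptic and 19 of 40 receptor genes, and for none of the liver, transcription factor or signalling lists.

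Developmental transcription factors (19) split at W8 into 4 higher (Prdm16 at 1.15 ± 0.22, Runx1, Gli3 and Zfpm2) and 3 lower (Nfia, Sox5 and Foxp1), with a median of -0.02 that became 0.30, with 6 higher and none lower, after centring, and 0.26, with 9 and 3, without W8 heart replicate 2. At P1 none passed, Zfpm2 being at 1.01 ± 0.27 and Sox5 at -0.73 ± 0.14. Fragile site genes (24) had 9 higher and 4 lower (0.33; 15 and 2 after centring), including Cdh13 (1.31 ± 0.28), Dpyd and Gphn, which encodes the synaptic scaffold gephyrin (-1.23 ± 0.16). Broadly expressed signalling and trafficking genes (29) had 5 higher, led by the Rac activators Tiam1 (1.42 ± 0.14) and Vav3 (0.96 ± 0.19), and 8 lower, led by the phosphatase Ptprk (-0.99 ± 0.21). Their median of -0.44 was opposite in sign to that of all members, and after centring it was -0.13, with 7 higher and none lower. Over all bodies 9.48% were called higher and 21.3% lower at W8, and over tested members 27.1% and 11.6%. The lower calls of the transcription factor and fragile site lists were below the share of all bodies. Those of the signalling list were not far above it. In each of these lists they were above the share of members.

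**Figure D5:**
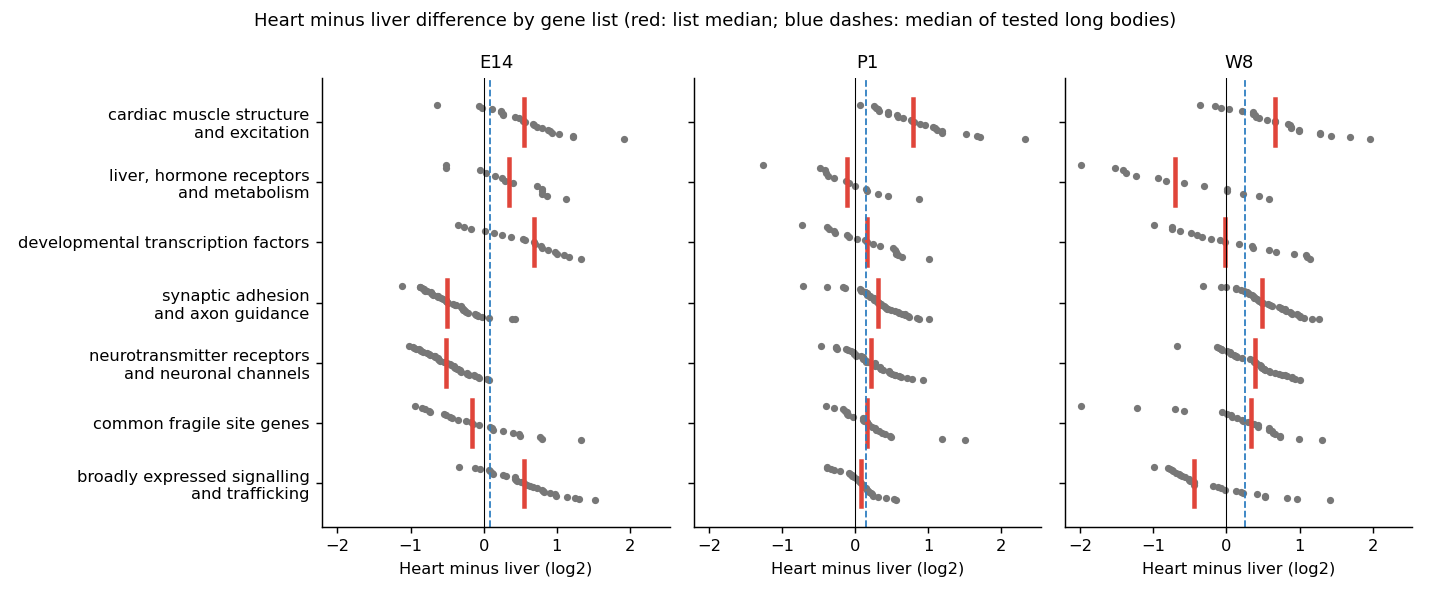
Heart minus liver difference (log2) of each long member of 7 gene lists at E14, P1 and W8; red bars are list medians and blue dashes the median of all tested long bodies. The cardiac list lies right of 0 at all 3 ages (medians 0.55, 0.79 and 0.67), and both neuronal lists lie left at E14 and right at P1 and W8.

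Against ESC, long bodies were more often higher in P1 heart. There 147 of 804 members were called higher (5.59% of all bodies) and 34 lower (7.11%), with a member median of 0.27 beside -0.13 over all bodies. Slc8a1 went from 0.245 and 0.242 FPKM in ESC to 1.49 and 1.50 in P1 heart (2.31 ± 0.38, adjusted p = 0.0180). Samd4 (2.01 ± 0.27), Gm12824 (1.87 ± 0.20), the protocadherin Pcdh7 (1.83 ± 0.24) and Zfpm2, a cofactor of GATA factors (1.73 ± 0.27), were next. In each, both P1 heart libraries were over 3 times both ESC libraries.

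P1 liver had 119 members higher than ESC (10.4% of all bodies) and 73 lower (5.05%), with medians of 0.10 over members and over all bodies. Alcam went from 0.210 and 0.225 to 0.919 and 0.874 FPKM (1.73 ± 0.15, adjusted p = 0.00712). Nfia, a nuclear factor I gene (1.70 ± 0.22), Stxbp6 (1.63 ± 0.16), Ghr (1.49 ± 0.17) and the anchoring protein Akap13 (1.38 ± 0.24) followed. Nfia was as high in P1 heart (1.39 and 1.26 FPKM) as in P1 liver (1.33 and 1.24).

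ESC-high members included several neural genes. Chl1, the member with the highest mean level, was at 4.55 and 4.59 FPKM in ESC and 1.18 and 0.977 in P1 heart (-2.02 ± 0.31) and 1.82 and 1.76 in P1 liver (-1.31 ± 0.31). Grik3 was at 1.99 and 1.65 in ESC and 0.388 and 0.335 in P1 liver (-2.11 ± 0.26). The axonemal dynein Dnahc8 (-1.86 ± 0.20 in heart, -1.58 ± 0.20 in liver), Tmem132d (-1.75 ± 0.16, -1.64 ± 0.16) and Igsf21 (-1.60 ± 0.22, -1.53 ± 0.22) were lower in both tissues. Pcdha11, of the clustered protocadherins, was lower in liver (-1.51 ± 0.19); genes of this cluster share exons, so its reads may not be its own.

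These 2 comparisons share the ESC libraries. Over all bodies 5.59% were called higher and 7.11% lower in P1 heart, and 10.4% and 5.05% in P1 liver. Over tested members the shares were 18.3% and 4.23% in heart and 14.8% and 9.08% in liver. The cardiac counts in liver and the higher synaptic count in heart, given next, lie near the shares of all bodies. The lower synaptic count in liver lies near the share of members. The cardiac list had 12 of 24 higher in P1 heart than ESC (median 0.88) and 2 higher and 1 lower in P1 liver (0.06). The liver list had 5 higher and 1 lower in heart (0.57) and 7 higher in liver (0.65). The synaptic list had 3 higher and 1 lower in heart (0.05) and 1 higher and 4 lower in liver (-0.30). Of 40 receptor and channel genes none was higher, and 3 were lower in heart, a share near the 7.11% of all bodies, and 8 in liver, where 5.05% of all bodies were. Transcription factors had 8 and 5 higher and none lower, and signalling genes 12 and 11 higher, with 1 lower in liver. Centring gave the receptor list 3 higher and 2 lower in heart, and the cardiac list 18 higher. Without W8 heart replicate 2 the calls in heart were 22 higher for the cardiac list, 8 higher and 2 lower for the synaptic list and 5 higher and 11 lower for the receptor list. In liver they were 7 higher and 5 lower (cardiac), 2 and 12 (synaptic) and 0 and 17 (receptor). The difference between lists has no test.

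Fits without ESC replicate 1 or without replicate 2 called no member in either comparison, nor did leaving out P1 heart replicate 2 for heart or P1 liver replicate 1 for liver; without P1 heart replicate 1 there were 26 calls and without P1 liver replicate 2 there were 20. Without W8 liver replicate 1 or 2 there were 7 and 7 for heart and 44 and 45 for liver; without P1 liver replicate 1 or 2 there were 77 and 78 for heart. The counts were 401 and 394 without W8 heart replicate 1, and 405 and 395 without replicate 2 (318 higher and 87 lower in heart, beside 13.6% and 19.5%, and 239 and 156 in liver, beside 20.8% and 12.8%). Centring gave 284 higher and 19 lower in heart (11.2% and 4.97% of all bodies) and 104 and 93 in liver (9.06% and 6.34%). Fitting the compared groups alone gave 134 and 19 in heart (5.27% and 7.97%) and 143 and 86 in liver (15.2% and 9.79%).

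Calls of W8 liver against P1 liver were mainly lower, over long bodies as over all bodies. Age and read format cannot be told apart between these groups. Against P1 liver, W8 liver had 110 members lower (8.90% of all bodies) and 10 higher (0.933%), with a member median of -0.28 beside -0.23 over all bodies. Tiam1 went from 1.42 and 1.35 FPKM to 0.378 and 0.353 (-1.73 ± 0.14, adjusted p = 0.00916). Gpc3, a glypican of the fetal liver (-1.50 ± 0.19), the growth factor receptor Igf1r (-1.49 ± 0.16), the blood transcription factor Runx1 (-1.47 ± 0.17) and Chst11 (-1.45 ± 0.14) also fell. Dpyd rose from 0.246 and 0.232 to 0.760 and 0.848 (1.49 ± 0.17), with Prr16 (0.96 ± 0.19), Zbtb20 (0.92 ± 0.18), Esr1 (0.90 ± 0.19) and Gphn (0.88 ± 0.16).

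Read format differs between these groups, and centring changed the balance to 29 higher and 36 lower (2.14% and 3.59% of all bodies). Fitting the 2 groups alone gave 27 higher and 223 lower (4.37% and 21.1%). Without W8 liver replicate 1 or 2 or P1 liver replicate 1 no member passed, without P1 liver replicate 2 there were 16, without either ESC library 40, without either P1 heart library 75, and without W8 heart replicate 1 or 2 there were 313 and 318 (37 higher and 281 lower without replicate 2, beside 3.72% and 21.1%). The leukocyte sums given above, at 0.973 in E14 liver, were also lower in W8 than in P1 liver and move with the fall of Runx1; their part in it was not tested.

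E14 liver was read in the same format as W8 liver, but it is 1 library, and the one whose levels are compressed. The spread behind the errors and adjusted p-values of this comparison comes from the replicated groups, so its calls describe that library against W8 liver and cannot be told apart from the library's own state. W8 liver had 119 members higher (17.9% of all bodies) and 154 lower (2.84%). The member median was -0.21 where that of all bodies was 0.47, and at 1 Mb or more it was -0.63. Ghr stood at 0.342 FPKM in E14 liver and at 1.20 and 1.32 in W8 liver (1.68 ± 0.21, adjusted p = 0.0117). Gfra1 (1.67 ± 0.18), Pid1 (1.63 ± 0.21), Zbtb20 (1.58 ± 0.22) and Adk, adenosine kinase (1.56 ± 0.18), were also called higher. Of the liver list 9 of 14 were called higher and none lower, and after centring 4 and none.

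Among those lower, Chl1 went from 3.33 to 0.761 and 0.665 FPKM (-2.11 ± 0.37). The contactin Cntn3 (-1.41 ± 0.18), the leukocyte Rac activator Dock2 (-1.28 ± 0.20), the gonadal receptor Fshr (-1.23 ± 0.20) and the metalloprotease Mmp16 (-1.21 ± 0.19) followed. Of 41 synaptic genes 21 were lower and none higher (-0.82), and of 40 receptor and channel genes 15 and none (-0.67). After centring 34 and 27 of these were lower. Cntn3, Fshr and Mmp16 were at 0.251, 0.246 and 0.229 FPKM in E14 liver, under the members' median of 0.343 there. They lay between the members' 5th percentile of 0.189 and lower quartile of 0.257. These differences rest on that library.

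Centring gave 18 members higher and 322 lower against E14 liver (3.47% and 8.76% of all bodies), and fits without W8 heart replicate 1 or 2 gave 499 and 500 calls (207 higher and 293 lower without replicate 2, beside 34.0% and 7.79%). Fitting the 2 groups alone gave 232 higher and 325 lower (51.1% and 14.0%). Without W8 liver replicate 1 or 2 no member passed; without ESC replicate 1 or 2 there were 134 and 130 calls.

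By group means, 44.5% of tested members were lowest in W8 liver and 36.1% highest in P1 heart, against 15.5% and 10.7% of the shorter class. Bodies of 100 to 200 kb lay between, at 30.1% and 25.4%. At 1 Mb or more 62.8% were lowest in W8 liver and 46.5% highest in E14 liver. The longest bodies with a gene of matching length in RefSeq were Dmd, Cntnap2 (2239 kb), Ptprd (2071 kb) and Lrp1b (2056 kb). The neurexin-like adhesion gene Cntnap2 was at 0.0599 to 0.135 FPKM in 11 libraries and at 0.199 in E14 liver. Lrp1b, a lipoprotein receptor relative at a fragile site, was at 0.0550 to 0.120 and at 0.193 in E14 liver. The receptor phosphatase Ptprd differed from both in being highest in W8 liver, at 0.236 and 0.257.

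The longest entry, Fgfr2 at 3007 kb, is a case apart, since its RefSeq gene spans 104 kb. It was at 0.464 to 0.837 FPKM, well above the other giants. Of 794 members matched to RefSeq by accession, 773 had a gene of 200 kb or more and 21 did not, including Fgfr2, Arfip1, Sim2, Prr16 and Pcdha11. One pair of members overlapped, Foxp1 and Eif4e3, over 7.02 kb.

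After Chl1 the highest mean levels were those of Sh3pxd2a, Foxn3, Etv6 and Zmiz1, a scaffold gene and 3 regulators of transcription. They lay between 0.902 and 2.40 FPKM, with E14 liver lowest for each. The lowest were Dach2, Htr2c, Odz1, Sim2 and Cnksr2, at 0.0238 to 0.166. All but Sim2 are X-linked, and so were 15 of the 50 lowest members against 32 of all 794 matched. The median X-linked member was at 25.9% to 32.1% of the autosomal one in 11 libraries and 48.9% in E14 liver. In the shorter class it was at 25.5% to 39.5% and 46.1%, so low X-linked levels were not confined to long bodies.

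At the 200000 bp threshold the nearest members were Neb (200152 bp), Dysf (200471 bp) and Amph (200543 bp), with mean levels of 0.493, 0.754 and 0.228 FPKM. The nearest bodies outside were Ppp1r12b (199283 bp), Fbn2 (199304 bp) and Antxr1 (199922 bp), at 0.781, 0.615 and 0.794.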

How the data were processed

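The authors pulled down 5hmC-bearing fragments by selective glucosylation and biotin capture (hMe-Seal), per the labels' protocols, and the submitters' processing notes name Bowtie2 and mm9, without a version for the aligner. How reads were counted is not stated. The deposited tables hold FPKM for gene bodies and promoter windows, computed by the authors, with mm9 start and end per the file headers. Starts are printed from 1. The tables name no chromosome, and 0 columns of per-sample values went unused.

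Group means were fitted to log2(FPKM + 0.0746), the pseudocount being the median value above 0 divided by 10, for all 13498 bodies whose mean reached it (limma 3.58.1, R 4.3.3, all 12 libraries, 5 residual degrees of freedom, variance trend). A fold change on this scale understates that of low bodies. Each of the 7 comparisons had its p-values adjusted over all tested bodies (Benjamini-Hochberg, threshold 0.05). E14 groups have no replicate and were assumed to vary like the others; E14 heart against liver has no test. The script was tested on simulated data. Unenriched input was not used here.

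Members and the 7 gene lists were chosen with earlier results of these data known. Genes named are the 8 (heart against liver) or 5 (other comparisons) largest log2 differences in each direction among calls whose groups do not overlap, the 5 longest, highest and lowest members, the 3 nearest the threshold on each side, the 3 largest of each list at each age (those at P1 that did not pass are named only in part), every cardiac or liver list call, and Dmd, Ryr2, Cacna1c, Ghr, Dpyd and Zbtb20. Heart, liver, ESC, endothelial, fibroblast, leukocyte and erythroid markers were checked. Symbols were matched to RefSeq (GRCm38.p6) by accession. Alternatives were other pseudocounts, no filter, median centring, a replicate block, fits of the compared groups only, promoter windows and each of 10 libraries left out.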

Additional observations from a re-analysis of the deposited data

How the results depend on the processing

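Without a filter no named result changed its call. Reversal was checked only for the 97 of 137 named results past the threshold. Among these, no alternative other than the promoter windows reversed a sign. The count of called members rests on the spread shared by few libraries. At 10 times the pseudocount 43 members passed in P1 heart against liver, and median centring gave 22 there, 303 for P1 heart against ESC and 65 for W8 against P1 liver. Fits of the compared groups alone gave 0 for heart against liver at P1 and at W8, 250 for W8 against P1 liver and 557 against E14 liver. Promoter windows gave 0 in each of these 4, and 0 for both ESC comparisons. Leaving out 1 library gave 0 to 222 calls for P1 heart against liver, 0 to 429 at W8, 0 to 200 for the interaction, 0 to 405 for P1 heart and 0 to 395 for P1 liver against ESC, 0 to 318 for W8 against P1 liver and 0 to 500 against E14 liver. With a 300 kb minimum the level of long bodies was 35.9% (ESC) and 54.1% (heart) of the shorter class, against 43.3% and 66.9%; with a 50 to 100 kb reference it was 52.1% in ESC. The W8 ratio of tissue SDs, 0.79, was 0.68 at 10 times the pseudocount and 0.65 to 0.85 with 1 library left out. The pseudocount does not enter the level ratios. Counting only members with a RefSeq gene of 200 kb or more, an alternative chosen after seeing the data, left 12, 300, 0, 175, 184, 114 and 262 calls.

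With the replicate number as a block, 0 members passed in P1 heart against liver, 276 at W8 and 0 for the interaction. The W8 calls were 193 higher and 83 lower, beside 8.66% and 19.4% of all bodies. Against ESC 139 passed for P1 heart and 152 for P1 liver, and 103 and 201 for W8 liver against P1 and E14 liver. Numbers share no stated source, and deviations of same-numbered libraries correlated at -0.01 to 0.04, so the block is no pairing of samples.

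In the promoter windows the log2 difference took the opposite sign for 34 named values that had passed the threshold over bodies. For P1 heart minus ESC these were Pcdh7 (-1.79), Samd4 (-1.12) and Zfpm2 (-0.0210). For P1 heart minus P1 liver they were Mgmt (-0.35) and Ttn (-0.13). For P1 liver minus ESC they were Akap13 (-0.0629), Alcam (-1.08), Ghr (-0.0934) and Stxbp6 (-0.49). For W8 heart minus W8 liver they were Cacna1c (-2.01), Cacna2d1 (-0.76), Cacnb2 (-1.01), Ctnna3 (-0.86), Dtna (-0.81), Fggy (0.24), Ghr (1.78), Gm12824 (-1.51), Kif6 (-1.54), Odz4 (-0.82), Pid1 (0.99), Pip5k1b (-0.63), Prdm16 (-1.90), Slit2 (-1.39), Ttn (-0.80), Zbtb20 (0.39) and Zfp521 (-0.61). For W8 liver minus E14 liver they were Adk (-0.50), Fshr (0.54), Ghr (-0.0766) and Zbtb20 (-0.48). For W8 liver minus P1 liver they were Dpyd (-0.81), Esr1 (-1.30), Runx1 (0.44) and Zbtb20 (-1.10). None of these passed the test. In W8 heart replicate 2 the median window of the members was at 0 FPKM. The Ttn window was at 0.618 and 0 FPKM in W8 heart against 0.452 and 0.217 in W8 liver, with replicate 1 above both liver libraries. That of Prdm16 was at 0.379 and 0 against 0.559 and 0.649, with both heart libraries below. The part of read number in these signs was not tested.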
